A study of Mus musculus with 48 samples.

Results

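The endothelium of cultured mouse kidney slices was followed through 10 genes that mark blood vessel lining cells: Pecam1, Cdh5, Kdr, Flt1, Tek, Tie1, Eng, Emcn, Ehd3 and Plvap. They were chosen by name and found by gene symbol. All 10 were found among the 55487 Ensembl gene IDs of the count table, and all 10 passed the filter on low counts in each of the 9 comparisons fitted. RNA-seq was carried out on 48 libraries of kidney slices from male mice of 2 inbred strains, C57BL/6J and DBA/2J, the founders of the BXD recombinant inbred panel. No transgene or other allele is named for either strain. Each strain contributed 3 libraries to each of 8 conditions, which gave 16 groups. These were untreated control slices at 6 h and at 24 h, slices given tunicamycin at 6 h and at 24 h, slices given cyclosporin A at 6 h and at 24 h, slices under normoxia, and slices under normoxia-hyperoxia. Tunicamycin blocks N-linked glycosylation and causes stress of the endoplasmic reticulum, and cyclosporin A is a calcineurin inhibitor known to harm the kidney. By their labels, normoxia models ischemia and normoxia-hyperoxia models reperfusion, and the library titles give 24 h for both. All groups share ex vivo culture, so no value here comes from fresh kidney, and slices have no blood flow. Not given in the sources used here are doses of either drug, the oxygen supplied to control slices, when oxygen was switched and how old the mice were. The labels number biological replicates but do not say whether same-numbered slices came from 1 mouse, so the p-values measure the spread between these libraries, which may in part be technical.

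Endothelial cells line every vessel of the kidney, from the fenestrated capillaries of the glomerulus to the peritubular capillaries and the vasa recta of the medulla. Podocytes and tubule cells secrete VEGF-A, which acts through the receptor encoded by Kdr, while angiopoietins act through Tek, and the endothelium depends on both signals. The junction proteins encoded by Cdh5 and Pecam1 hold the cells together. The other members are surface or trafficking proteins of these cells: Eng is a co-receptor for TGF-beta and BMP ligands, Emcn a sialomucin of the luminal surface, Ehd3 a membrane trafficking protein found in the kidney mainly in glomerular endothelium, and Plvap the protein that forms the diaphragms of fenestrae and caveolae.

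The members lie on 7 chromosomes in 10 separate protein-coding genes (GRCm38, the build in the submitters' processing notes). Pecam1 (ENSMUSG00000020717) is at chr11:106654217-106750628 on the minus strand and Cdh5 (ENSMUSG00000031871) at chr8:104101625-104144511 on the plus strand. Of the VEGF receptors, Kdr (ENSMUSG00000062960) is at chr5:75932827-75978458 and Flt1 (ENSMUSG00000029648) at chr5:147561604-147726011, both on the minus strand. Tek (ENSMUSG00000006386) is at chr4:94739289-94874976 on the plus strand, and Tie1 (ENSMUSG00000033191) is on the same chromosome at chr4:118471191-118490061 on the minus strand. Eng (ENSMUSG00000026814) is at chr2:32646595-32682669, Emcn (ENSMUSG00000054690) at chr3:137341067-137432185 and Ehd3 (ENSMUSG00000024065) at chr17:73804134-73832094, all on the plus strand. Plvap (ENSMUSG00000034845) is at chr8:71497765-71511752 on the minus strand. Eng is the only member whose exons overlap those of another gene: 61 of its 4048 exonic bases (1.51%) lie opposite exons of Fpgs. Counts are per gene, so the membrane and soluble forms of the Flt1 protein are not told apart.

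Promoters were examined because 8 of the 10 members varied together across the groups. Entries of 300 bases (250 before to 50 after the start) were found in RefSeq, on GRCm38.p6, for 7 members: Kdr, Flt1, Tek, Emcn, Ehd3, Eng and Tie1. Pecam1, Cdh5 and Plvap had no entry. ETS factors such as ERG and FLI1, which are known regulators of endothelial genes, bind sites with a GGAA core, so AGGAAG and CGGAAG were searched on both strands. Either hexamer was present in 5 of the 7 member promoters and in 46.5% of all 32851 promoters of this length. AGGAAG alone was in 5 of 7 and in 35.4% of all, and CGGAAG in 1 of 7 and in 16.9% of all. The 4 sequences below are those of Tie1, with 3 matches, and of Flt1, Emcn and Eng, with 2 each. They are written 5′ to 3′ along the gene's strand, with matches to either hexamer or its reverse complement in capitals. Tie1 spans chr4:118489800-118490099 (minus strand), Flt1 chr5:147725962-147726261 (minus strand), Emcn chr3:137340828-137341127 (plus strand) and Eng chr2:32646345-32646644 (plus strand).
Tie1: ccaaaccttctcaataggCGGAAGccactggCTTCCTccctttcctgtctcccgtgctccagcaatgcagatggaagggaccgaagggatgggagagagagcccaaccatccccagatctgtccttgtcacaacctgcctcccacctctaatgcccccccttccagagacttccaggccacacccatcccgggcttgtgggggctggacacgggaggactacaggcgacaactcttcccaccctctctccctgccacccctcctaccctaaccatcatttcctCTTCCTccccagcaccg
Flt1: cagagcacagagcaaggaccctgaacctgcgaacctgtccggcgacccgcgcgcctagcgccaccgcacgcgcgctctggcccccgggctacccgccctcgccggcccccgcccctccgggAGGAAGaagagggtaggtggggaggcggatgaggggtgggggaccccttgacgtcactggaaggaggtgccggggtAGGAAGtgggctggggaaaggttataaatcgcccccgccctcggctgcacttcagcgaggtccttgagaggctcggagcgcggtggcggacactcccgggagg
Emcn: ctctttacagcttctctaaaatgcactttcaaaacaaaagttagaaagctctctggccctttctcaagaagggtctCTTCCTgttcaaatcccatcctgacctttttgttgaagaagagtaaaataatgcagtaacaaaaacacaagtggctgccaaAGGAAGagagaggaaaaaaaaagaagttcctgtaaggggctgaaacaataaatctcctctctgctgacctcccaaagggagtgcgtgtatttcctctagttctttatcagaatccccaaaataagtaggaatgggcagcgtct
Eng: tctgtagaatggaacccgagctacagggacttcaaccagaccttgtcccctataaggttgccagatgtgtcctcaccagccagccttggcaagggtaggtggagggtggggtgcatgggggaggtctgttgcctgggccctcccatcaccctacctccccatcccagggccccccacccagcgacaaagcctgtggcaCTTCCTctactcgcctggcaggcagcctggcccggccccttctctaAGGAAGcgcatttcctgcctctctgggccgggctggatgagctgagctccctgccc
A match is a description of the letters and not a measured binding site. The other words searched on both strands were ACGTG (1 of 7 member promoters against 19.6% of all), GATAA (2 of 7 against 25.4%), AACAAT (2 of 7 against 10.7%) and TATAAA (1 of 7 against 13.6%).

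Library totals lay between 5619309 and 25137581 counts (median 19607361). The lowest total belonged to DBA/2J normoxia-hyperoxia replicate 2, and the next lowest was 12384733. Mitochondrial genes took 3.11% to 25.6% of the counts. The share was 14.8% to 16.3% in C57BL/6J controls at 6 h and 5.96% to 7.87% at 24 h, and 8.05% to 8.32% and 3.39% to 3.602% in DBA/2J. Under normoxia it was 22.8% to 25.6% in C57BL/6J and 11.8% to 12.8% in DBA/2J, and under normoxia-hyperoxia 12.2% to 16.6% and 10.98% to 17.4%. Markers of tubules and podocytes, 8 genes each, were above 0 counts in every group. Levels are CPM, counts scaled by the library total, with TMM factors over all 48 libraries, and the lowest count of any member in any library was 300, for Tek. In such bulk tissue, fewer endothelial cells and less RNA of these genes per cell cannot be told apart.

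Levels can be compared between genes only per length, and per kb of exon Plvap was the most abundant member in slices at 6 h, under normoxia and under normoxia-hyperoxia, in both strains. In C57BL/6J controls at 6 h it reached 259 ± 8.13 CPM per kb (SD, n = 3). Eng followed with 84.3 ± 2.35, Cdh5 with 74.3 ± 29.04 and Pecam1 with 48.7 ± 8.01 CPM per kb. Eng and Cdh5, neighbours in that order, did not differ beyond their spread. Kdr stood at 39.02 ± 2.72, Emcn at 37.2 ± 3.11 and Flt1 at 34.7 ± 8.81 CPM per kb, again within their spread. The receptor pair Tie1 and Tek was lower, at 28.7 ± 1.39 and 24.2 ± 0.579 CPM per kb, and Ehd3 was lowest at 13.5 ± 1.72. In the 24 h controls the order at the top changed. Cdh5 led with 117 ± 18.2 CPM per kb in C57BL/6J and 68.3 ± 18.98 in DBA/2J, while Plvap held 26.7 ± 4.73 and 27.3 ± 6.07. Ehd3 stayed the lowest of the 10 in 15 of the 16 groups. The exception was DBA/2J normoxia, where Flt1 had 8.21 ± 2.04 and Ehd3 8.33 ± 2.68 CPM per kb, within their spread.

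**Figure D1:**
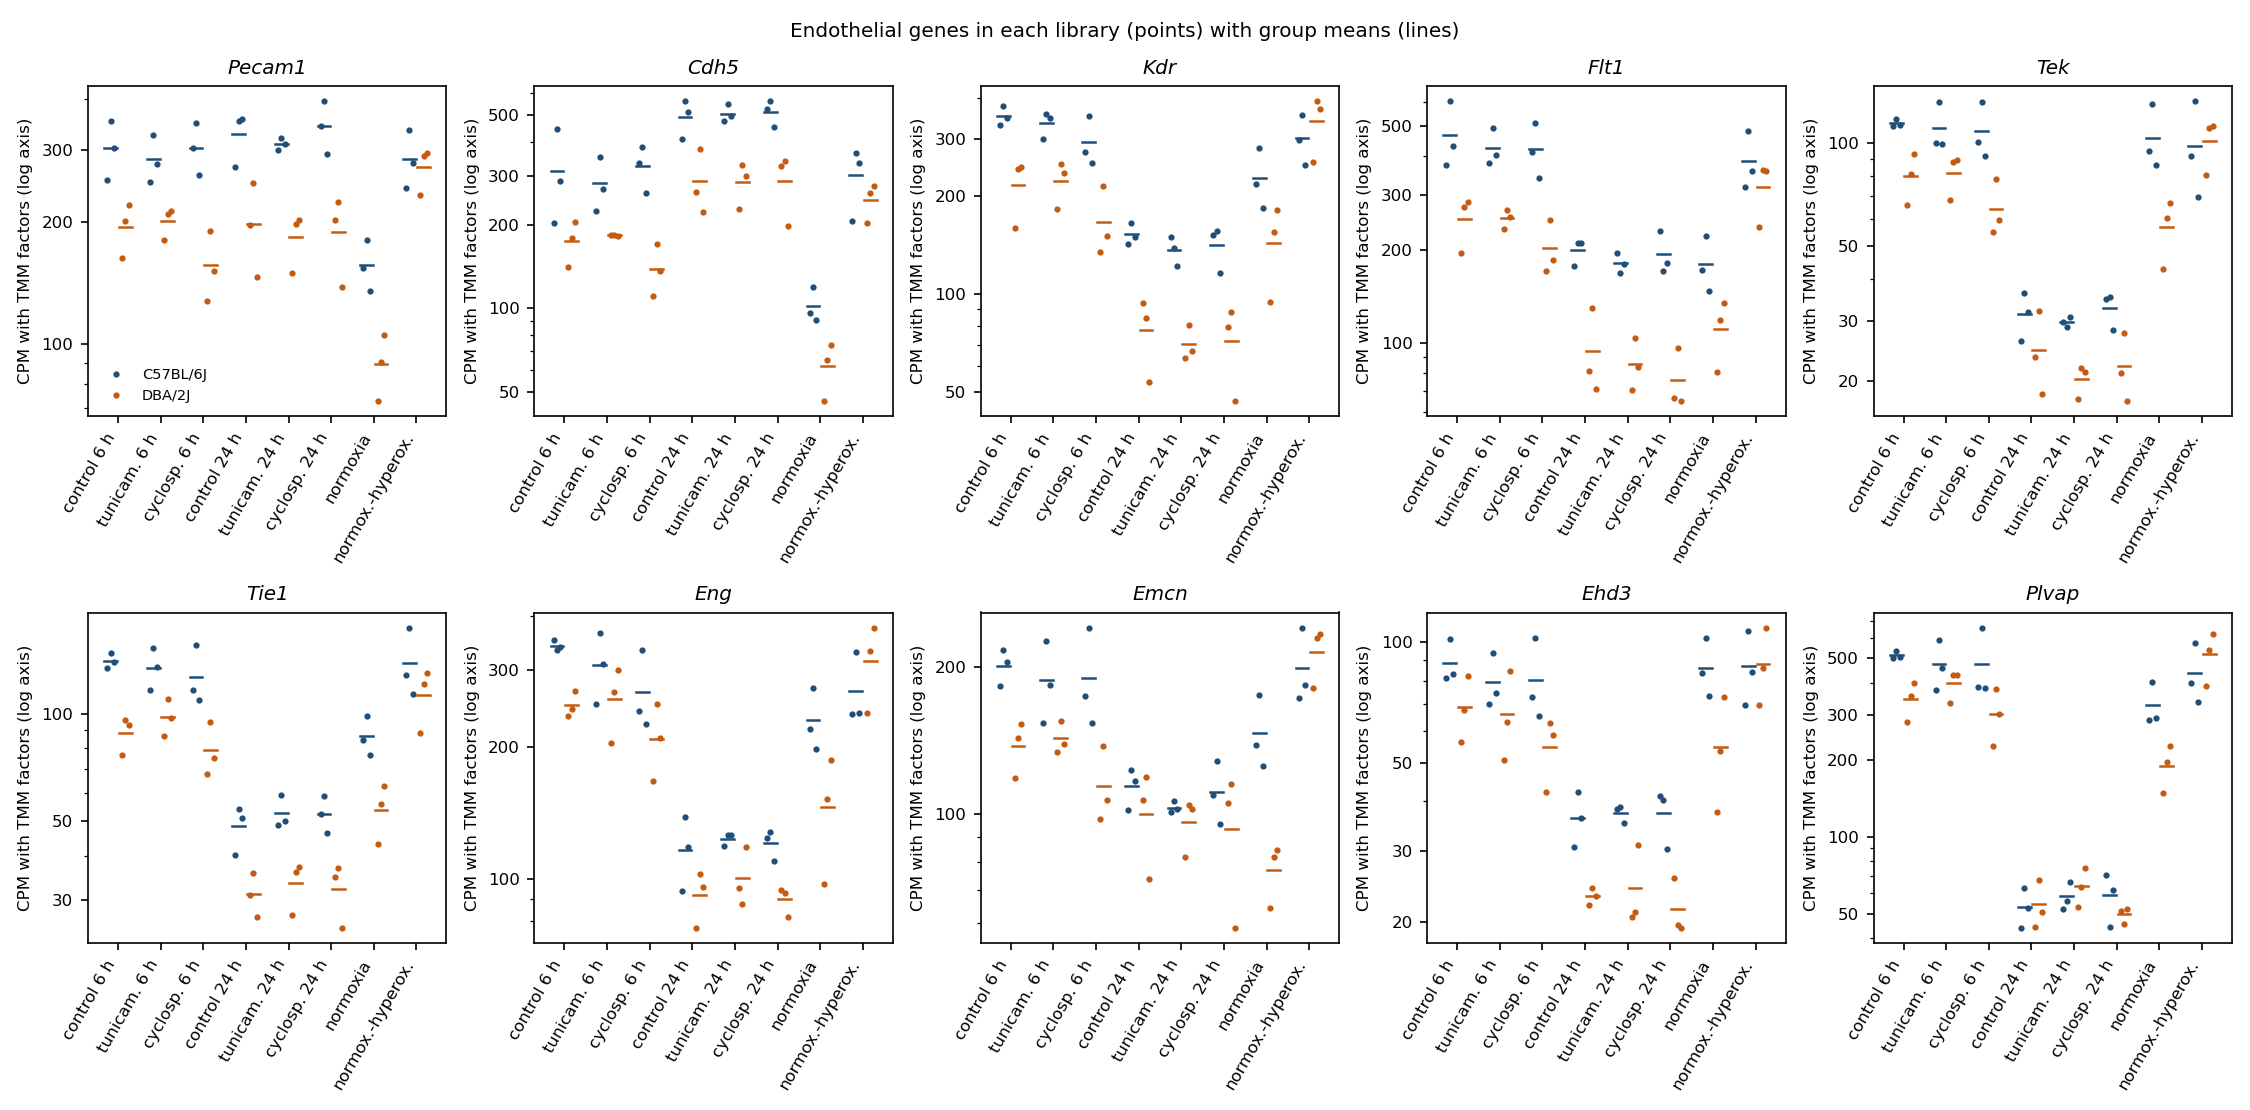
CPM of the 10 members (log axis) in each of the 48 libraries (points) with group means (lines), by condition and strain. Plvap fell from a mean of 515 CPM in C57BL/6J controls at 6 h to 53.1 at 24 h and stood at 437 under normoxia-hyperoxia, while Cdh5 was highest in the 24 h controls and drug groups and lowest under normoxia.

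The 24 h controls were compared with the 6 h controls to see what time in culture did to the endothelial genes. Of the members, 8 fell and Cdh5 rose, against 37.4% of all 16962 genes tested that were lower and 34.7% that were higher. The median log2 fold change of the 10 members, taken as the mean of both strains, was -1.40, and that of all genes tested was -0.02. With library totals in place of TMM factors the median of all genes moved to 0.19, and 7580 genes were higher and 4969 lower in place of 5883 and 6338. The largest fall was that of Plvap, the diaphragm protein. Its libraries held 503, 533 and 508 CPM at 6 h and 44.03, 62.8 and 52.5 at 24 h in C57BL/6J. In DBA/2J they held 282, 356 and 401 CPM and then 44.4, 67.7 and 50.6. Every 24 h library lay far below every 6 h library, with a log2 fold change of -2.99 ± 0.125 (SE, edgeR adjusted p = 2.31e-10).

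The angiopoietin receptors also fell. Tek, which encodes the receptor Tie2, was counted at 112, 117 and 113 CPM in C57BL/6J at 6 h and at 26.3, 36.3 and 32 at 24 h. The DBA/2J libraries had 65.6, 80.998 and 92.7 CPM and then 23.6, 32.1 and 18.3. The times did not overlap in either strain, and the log2 fold change came to -1.79 ± 0.130 (SE, edgeR adjusted p = 5.6e-08). Tie1, its partner receptor, went from 134, 148 and 140.2 to 40.1, 53.9 and 50.9 CPM in C57BL/6J. In DBA/2J it went from 76.5, 95.9 and 92.9 to 30.95, 35.8 and 26.96 CPM. Here too the times were apart in both strains, with a log2 fold change of -1.54 ± 0.0917 (SE, edgeR adjusted p = 2.23e-09).

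Both VEGF receptors fell. Kdr, the main signalling receptor for VEGF-A, had 331, 379 and 348 CPM at 6 h and 142, 166 and 150.4 at 24 h in C57BL/6J. In DBA/2J the values were 159.8, 242 and 246 CPM and then 93.995, 84.3 and 53.7. Within each strain the times did not overlap, and the log2 fold change came to -1.36 ± 0.138 (SE, edgeR adjusted p = 1.46e-06). Flt1, whose product binds VEGF-A tightly and can hold it away from Kdr, had 374, 603 and 431 CPM at 6 h and 178, 209 and 209 at 24 h in C57BL/6J. In DBA/2J it had 195, 275 and 284 and then 81.1, 129.8 and 71.1 CPM. Its times were apart within each strain as well, and its log2 fold change came to -1.35 ± 0.168 (SE, edgeR adjusted p = 1.57e-05).

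Among the surface and trafficking genes, Eng had 352, 333 and 339 CPM at 6 h and 93.7, 138 and 118 at 24 h in C57BL/6J, and 235, 245 and 269 and then 77.3, 103 and 95.8 in DBA/2J. The times were apart in both strains (log2 fold change -1.51 ± 0.0953). Ehd3 had 81.2, 102 and 83.2 CPM and then 30.8, 42.2 and 36.3 in C57BL/6J, and 56.2, 67.8 and 82.1 and then 21.99, 24.3 and 23.2 in DBA/2J. Its times were apart in both strains as well (log2 fold change -1.44 ± 0.103). Emcn fell least of the 8, by 0.66 on the log2 scale. It had 183, 216 and 204 CPM and then 102, 123 and 117 in C57BL/6J, and 118, 143 and 153 and then 107, 119 and 73.7 in DBA/2J, where the times overlapped. The edgeR adjusted p-values of these 3 genes were 3.82e-09, 1.45e-08 and 7.54e-05.

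Neither junction gene was called lower. Cdh5, which encodes VE-cadherin, had 204, 445 and 289 CPM at 6 h and 409, 559 and 509.7 at 24 h in C57BL/6J. In DBA/2J it had 141, 179 and 205 CPM and then 262, 377 and 223. The times were apart in DBA/2J and overlapped in C57BL/6J, where the 6 h libraries were widely spread, and the log2 fold change came to 0.67 ± 0.193 (SE, edgeR adjusted p = 0.00827). Pecam1, which encodes CD31 and is also made by platelets and leukocytes, had 253, 353 and 304 CPM at 6 h and 273, 353 and 356 at 24 h in C57BL/6J. The DBA/2J values were 163, 201 and 219.5 and then 197, 248 and 146 CPM. Its times overlapped in both strains, and its log2 difference of 0.05 ± 0.132 (SE, edgeR adjusted p = 0.766) did not pass the test.

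Other cell types and the RNA makeup moved between the times too. All 8 podocyte markers were lower at 24 h, and their summed level was 2586 to 2827 CPM at 6 h and 1466 to 1688 at 24 h in C57BL/6J, with 1748 to 2018 and 755 to 1154 in DBA/2J. Of the 10 pericyte and fibroblast markers, 9 were lower and none higher. All 8 tubule markers were lower, with a sum of 15048 to 17718 CPM at 6 h and 2805 to 5255 at 24 h in C57BL/6J, and 11917 to 13452 and 3206 to 4743 in DBA/2J. No gene of these 3 lists was at 0 counts in a group. The sum of the 10 leukocyte and platelet markers, from cells that also make Pecam1, was 97.6 to 135 CPM at 6 h and 122 to 153 at 24 h in C57BL/6J, and 123 to 137 and 185 to 224 in DBA/2J, with 1 of the 10 at 0 counts in the C57BL/6J controls at 24 h. Of the 9 that could be tested, 3 were higher and 3 lower at 24 h. The part of these shifts, and of the lower mitochondrial share at 24 h, in the values of the members was not tested.

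**Figure D2:**
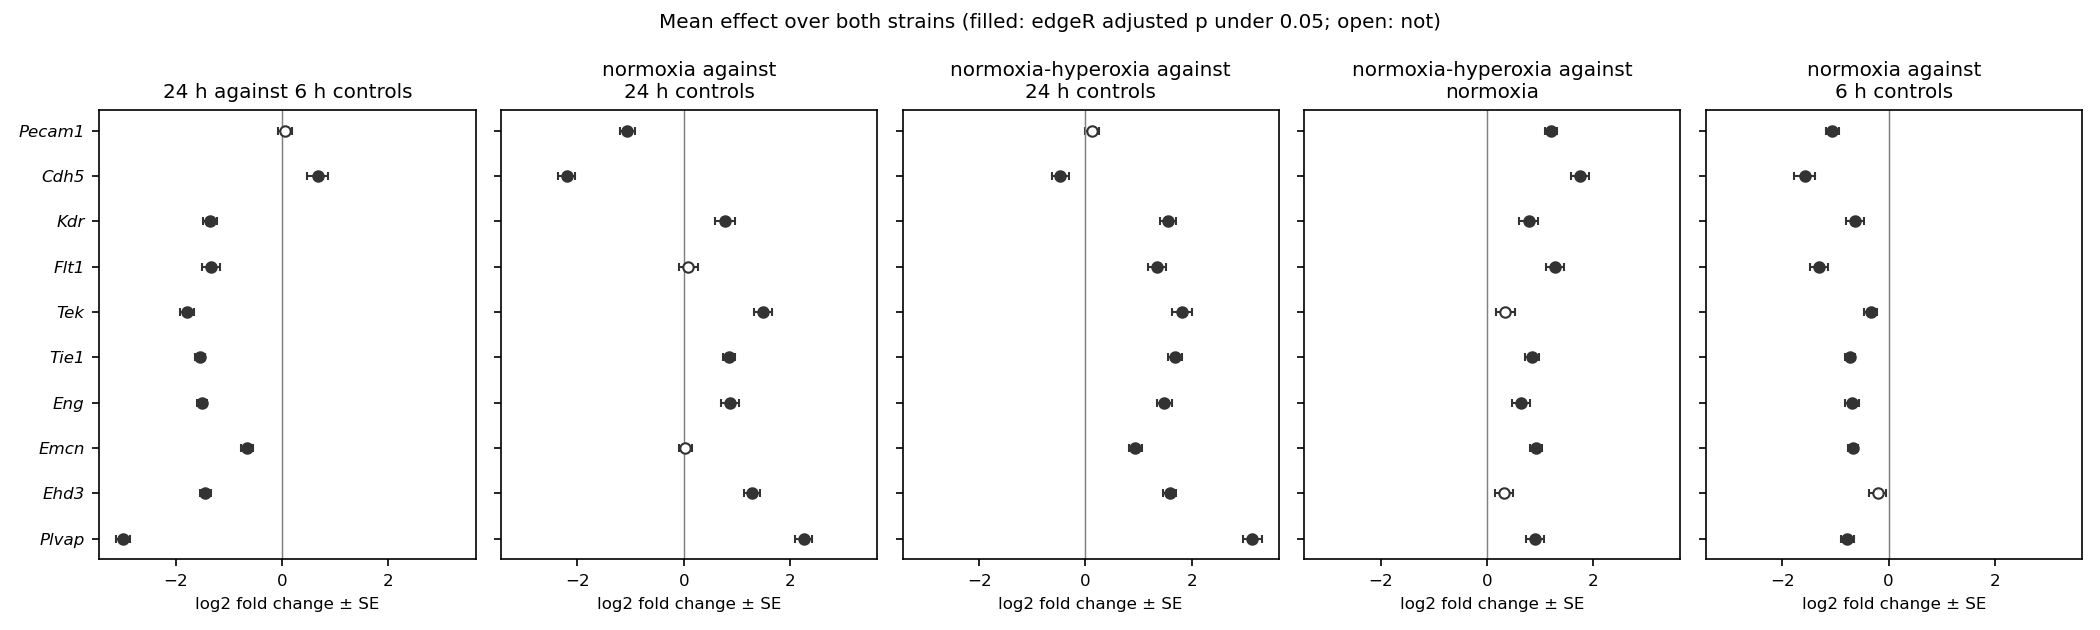
Log2 fold change ± SE of each member, as the mean of both strains, in the 5 comparisons of time and oxygen, with filled points for edgeR adjusted p under 0.05. Cdh5 and Pecam1 stand apart from the other 8: Cdh5 was 0.67 at 24 h against 6 h and -2.20 under normoxia against 24 h controls, where Plvap was -2.99 and 2.26.

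By their titles, the 2 oxygen conditions lie outside the part of the study titled nephrotoxicity, which holds the controls and drug groups. Part of the study and oxygen thus cannot be told apart in any comparison with the controls. The 2 oxygen conditions are titled ischemia and reperfusion, and the labels do not say whether they were run together. The comparisons with the 24 h controls share those controls with each other and with the comparison of the 2 times.

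Slices under normoxia were set against the 24 h controls. Of the members, 6 rose and 2 fell, against 42.4% of all 17375 genes tested that were higher and 39.7% that were lower. The median log2 fold change of the members was 0.81, and that of all genes was 0.05. Library totals moved the latter to -0.22 and the calls over all genes from 7359 higher and 6891 lower to 5935 and 8360. Plvap rose most, with 288, 403 and 292 CPM under normoxia in C57BL/6J and 148, 196 and 226 in DBA/2J, above every 24 h control library. This was a log2 fold change of 2.26 ± 0.156 (SE, edgeR adjusted p = 8.13e-08). Tek rose next, to 94.6, 129.9 and 86.4 CPM in C57BL/6J and 42.7, 60.2 and 66.8 in DBA/2J. These libraries also lay above all of their 24 h controls, with a log2 fold change of 1.495 ± 0.172 (SE, edgeR adjusted p = 9.03e-06). Ehd3 had 83.8, 102 and 73.2 CPM in C57BL/6J and 37.7, 53.4 and 72.8 in DBA/2J, again clear of the controls (log2 fold change 1.28 ± 0.155, edgeR adjusted p = 1.15e-05).

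Kdr, Eng and Tie1 rose by less. Kdr had 218, 281 and 184 CPM under normoxia in C57BL/6J and 94.8, 155 and 181 in DBA/2J. Tie1 had 84.2, 98.7 and 76.6 CPM in C57BL/6J and 42.97, 55.7 and 62.8 in DBA/2J. The Eng libraries held 221, 274 and 198 CPM in C57BL/6J and 97.3, 152 and 187 in DBA/2J. All of these libraries lay above the 24 h controls of their strain except for Eng in DBA/2J, where the groups overlapped. The log2 fold changes were 0.78 ± 0.185 for Kdr, 0.85 ± 0.113 for Tie1 and 0.87 ± 0.167 for Eng, with edgeR adjusted p-values of 0.00263, 1.16e-05 and 0.000604. Flt1 and Emcn did not pass the test. Flt1 had 172, 221 and 147 CPM in C57BL/6J and 80.5, 118 and 134 in DBA/2J and overlapped its controls in both strains at a log2 difference of 0.09 ± 0.179 (SE, edgeR adjusted p = 0.66). Emcn had 139, 175 and 125 CPM in C57BL/6J, above its controls, and 64.6, 81.7 and 84.5 in DBA/2J, where the groups overlapped at a log2 difference of 0.03 ± 0.126 (SE, edgeR adjusted p = 0.832). The sign of these last 2 differences changed under other settings: with library totals in place of TMM factors, Flt1 was at -0.18 and Emcn at -0.24.

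The junction genes went the other way. Cdh5 had 96.4, 119 and 90.6 CPM under normoxia in C57BL/6J and 46.2, 65.1 and 73.97 in DBA/2J. Every value was below every 24 h control, and below every 6 h control, of its strain, and the log2 fold change against the 24 h controls was -2.20 ± 0.164 (SE, edgeR adjusted p = 1.6e-07). Pecam1 had 154, 179.8 and 135 CPM in C57BL/6J and 72.6, 90.7 and 105 in DBA/2J, also below all controls of either time in its strain, with a log2 fold change of -1.06 ± 0.144 (SE, edgeR adjusted p = 2.8e-05). Normoxia held the lowest levels of both genes among the 8 conditions in each strain.

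Against the 6 h controls, which started from higher levels of most members, 9 of the 10 were lower under normoxia and none higher. Of all 16819 genes tested, 32.9% were lower and 32.9% higher. The median log2 fold change was -0.71 for the members and 0.02 for all genes. Cdh5 (-1.58 ± 0.195), Flt1 (-1.30 ± 0.169) and Pecam1 (-1.06 ± 0.118) fell furthest, as log2 fold change ± SE. Plvap (-0.78 ± 0.122), Tie1 (-0.73 ± 0.0967), Eng (-0.69 ± 0.132), Emcn (-0.67 ± 0.0994) and Kdr (-0.63 ± 0.167) fell by less, and Kdr overlapped its controls in DBA/2J. Tek passed narrowly with a log2 fold change of -0.34 ± 0.128 (SE, edgeR adjusted p = 0.0318), overlapped its controls in both strains, and lost the call in 9 of 12 fits made without a library. Ehd3 overlapped its controls in both strains and did not pass, at -0.20 ± 0.156 (SE, edgeR adjusted p = 0.27). With the replicate block Ehd3 passed, at a log2 fold change of -0.22 (edgeR adjusted p = 0.00486). These comparisons differ in time as well as in oxygen, since the normoxia slices were at 24 h.

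Under normoxia-hyperoxia, 8 members were higher than in the 24 h controls and 1 was lower, where 34.1% of all 17256 genes tested were higher and 34.1% lower. The median log2 fold change was 1.52 for the members and 0.0036 for all genes. Library totals moved the latter to -0.17 and the calls over all genes from 5881 higher and 5891 lower to 4699 and 7347. Plvap held 399, 573 and 338 CPM in C57BL/6J and 391, 539 and 625 in DBA/2J, and all of these lay above all of the 24 h controls. The log2 fold change came to 3.14 ± 0.180 (SE, edgeR adjusted p = 3.01e-08). Tek had 91.7, 133 and 69.2 CPM in C57BL/6J and 80.4, 111 and 112 in DBA/2J, above all of its 24 h controls. Its partner Tie1 had 129, 175 and 114 CPM in C57BL/6J and 88.3, 122 and 129.9 in DBA/2J, also without overlap. Both rose, by log2 fold changes of 1.82 ± 0.186 and 1.68 ± 0.135 (edgeR adjusted p = 4.7e-06 and 3.2e-07). Kdr had 299, 355 and 250.2 CPM in C57BL/6J and 255, 393 and 372 in DBA/2J. Flt1 had 318, 484 and 358 CPM in C57BL/6J and 237, 361 and 359.7 in DBA/2J. The VEGF receptors rose by 1.55 ± 0.151 and 1.35 ± 0.172 on the log2 scale, with no overlap in either strain (edgeR adjusted p = 2.42e-06 and 2.73e-05).

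Ehd3 reached 69.6, 107 and 84.4 CPM in C57BL/6J and 69.7, 85.99 and 109 in DBA/2J. Eng reached 238, 331 and 239.6 CPM in C57BL/6J and 239, 332 and 376 in DBA/2J, and Emcn 172, 240.2 and 184 CPM in C57BL/6J and 181, 229 and 233 in DBA/2J. None of these libraries overlapped the 24 h controls of its strain. The log2 fold changes were 1.59 ± 0.128 for Ehd3, 1.49 ± 0.141 for Eng and 0.94 ± 0.124 for Emcn (edgeR adjusted p = 2.17e-07, 1.55e-06 and 2.14e-05). Cdh5 was again the exception and fell, with 207, 364 and 336 CPM in C57BL/6J and 204, 261 and 276 in DBA/2J, the latter overlapping the controls. Its log2 fold change of -0.47 ± 0.167 (SE, edgeR adjusted p = 0.0258) lost the call without C57BL/6J control 24 h replicate 2, DBA/2J control 24 h replicate 2 or DBA/2J normoxia-hyperoxia replicate 1, with edgeR adjusted p-values of 0.0572 to 0.0661. Pecam1 had 241, 335 and 278 CPM in C57BL/6J and 233, 290.5 and 295 in DBA/2J, overlapped its controls in both strains and did not pass, at 0.13 ± 0.131 (SE, edgeR adjusted p = 0.413).

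Between the oxygen conditions, normoxia-hyperoxia was compared with normoxia. All 10 members were higher in the mean of both strains, and 8 passed the test, against 37% of all 17228 genes tested that were higher. None was lower, where 36.5% of all genes were. The median log2 fold change was 0.87 for the members and 0.02 for all genes. Cdh5 moved furthest, by 1.75 ± 0.162 (SE, edgeR adjusted p = 1.18e-06) on the log2 scale. Flt1 followed at 1.28 ± 0.170 (SE, edgeR adjusted p = 2.86e-05) and Pecam1 at 1.204 ± 0.112 (SE, edgeR adjusted p = 2.54e-07), and all 3 genes were apart from normoxia in both strains. Emcn rose by 0.93 ± 0.112, Plvap by 0.90 ± 0.168, Kdr by 0.79 ± 0.178 and Eng by 0.64 ± 0.173 on the log2 scale, each without overlap in DBA/2J and with overlap in C57BL/6J. Tie1 rose by 0.85 ± 0.139 with no overlap in either strain. Tek, at 0.35 ± 0.182 (SE, edgeR adjusted p = 0.108), and Ehd3, at 0.32 ± 0.177 (SE, edgeR adjusted p = 0.125), did not pass. In C57BL/6J the mean of Tek was 97.9 CPM under normoxia-hyperoxia and 103.6 under normoxia, and that of Ehd3 86.9 and 86.4, both with overlap. In DBA/2J these means were 101.3 and 56.6 CPM for Tek, without overlap, and 88.1 and 54.6 for Ehd3, with overlap. Tek and Ehd3 both passed with no filter on low counts (edgeR adjusted p = 2.11e-05 and 9.41e-05), in the single fit of all libraries (0.027 and 0.046) and with the replicate block (2.28e-04 and 8.32e-04). Tek also passed without C57BL/6J normoxia-hyperoxia replicate 3 (edgeR adjusted p = 0.0393), and Ehd3 without DBA/2J normoxia replicate 3 (edgeR adjusted p = 0.0265).

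Other lists moved in these comparisons as well, with no tubule, podocyte or pericyte gene at 0 counts in a group. Counts are given for normoxia against the 24 h controls, normoxia against the 6 h controls, normoxia-hyperoxia against the 24 h controls and normoxia-hyperoxia against normoxia, in that order. Of 8 podocyte markers, 0, 0, 7 and 8 were higher and 5, 8, 0 and 0 lower. Their sums were 1075 to 1403 CPM under normoxia and 2252 to 2699 under normoxia-hyperoxia in C57BL/6J, and 617 to 793 and then 1443 to 2550.4 in DBA/2J. Of 8 tubule markers, 8, 3, 5 and 3 were higher and 0, 2, 3 and 3 lower. Their sums were 2805 to 5255 CPM in the 24 h controls, 18466 to 21448 under normoxia and 12509 to 21882 under normoxia-hyperoxia in C57BL/6J. In DBA/2J these sums were 3206 to 4743, then 14657 to 15990.0 and 12401 to 14596 CPM. Of 10 pericyte and fibroblast markers, 1, 0, 5 and 7 were higher and 3, 9, 1 and 1 lower. Their sums were 309.6 to 372 CPM under normoxia and 363 to 475 under normoxia-hyperoxia in C57BL/6J, and 142 to 182 and then 276 to 324 in DBA/2J. Of 9 leukocyte and platelet markers tested, which come from cells that also make Pecam1, 5, 4, 5 and 6 were higher and 3, 3, 3 and 1 lower. The sums of all 10 were 126 to 155 CPM under normoxia and 124 to 154 under normoxia-hyperoxia in C57BL/6J, and 104 to 116 and then 239.8 to 285 in DBA/2J. The part of these shifts, and of the mitochondrial share, in the members' values was not tested.

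Ratios of counts between members of the same library do not depend on the scaling between libraries. Plvap over Pecam1 was 1.99, 1.51 and 1.67 in the C57BL/6J controls at 6 h and 0.161, 0.178 and 0.147 at 24 h. In DBA/2J it was 1.73, 1.77 and 1.83 and then 0.226, 0.273 and 0.347. The ratio was lower in all 24 h control libraries than in all 6 h ones, and every library of the oxygen conditions lay above the 24 h controls, with means of 2.09 ± 0.194 (SD, n = 3) under normoxia and 1.53 ± 0.271 under normoxia-hyperoxia in C57BL/6J, and 2.11 ± 0.0640 and 1.89 ± 0.222 in DBA/2J. Tek over Pecam1 also had its lowest control values at 24 h. Its means in C57BL/6J were 0.383 ± 0.0565 at 6 h, 0.0963 ± 0.00652 at 24 h, 0.659 ± 0.0565 under normoxia and 0.342 ± 0.0808 under normoxia-hyperoxia.

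Within the junction pair, Cdh5 over Pecam1 moved in the other direction with time in culture. It was 0.806, 1.26 and 0.950 at 6 h and 1.501, 1.58 and 1.43 at 24 h in C57BL/6J, and 0.867, 0.892 and 0.935 and then 1.33, 1.52 and 1.53 in DBA/2J. All 24 h control libraries lay above all 6 h ones. Under normoxia the ratio was 0.628, 0.664 and 0.669 in C57BL/6J and 0.637, 0.718 and 0.701 in DBA/2J, below every control library. Within the VEGF receptor pair, Flt1 over Kdr had its lowest means under normoxia, with 0.790, 0.786 and 0.798 in C57BL/6J and 0.849, 0.760 and 0.740 in DBA/2J. Under normoxia-hyperoxia it was 1.06, 1.36 and 1.43 in C57BL/6J and 0.931, 0.918 and 0.967 in DBA/2J, higher than under normoxia in every library of both strains. The angiopoietin receptor pair showed Tie1 over Tek at 1.23 ± 0.0337 at 6 h, 1.53 ± 0.0524 at 24 h, 0.845 ± 0.0745 under normoxia and 1.45 ± 0.168 under normoxia-hyperoxia in C57BL/6J. These ratios are given as a description, with no test.

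**Figure D3:**
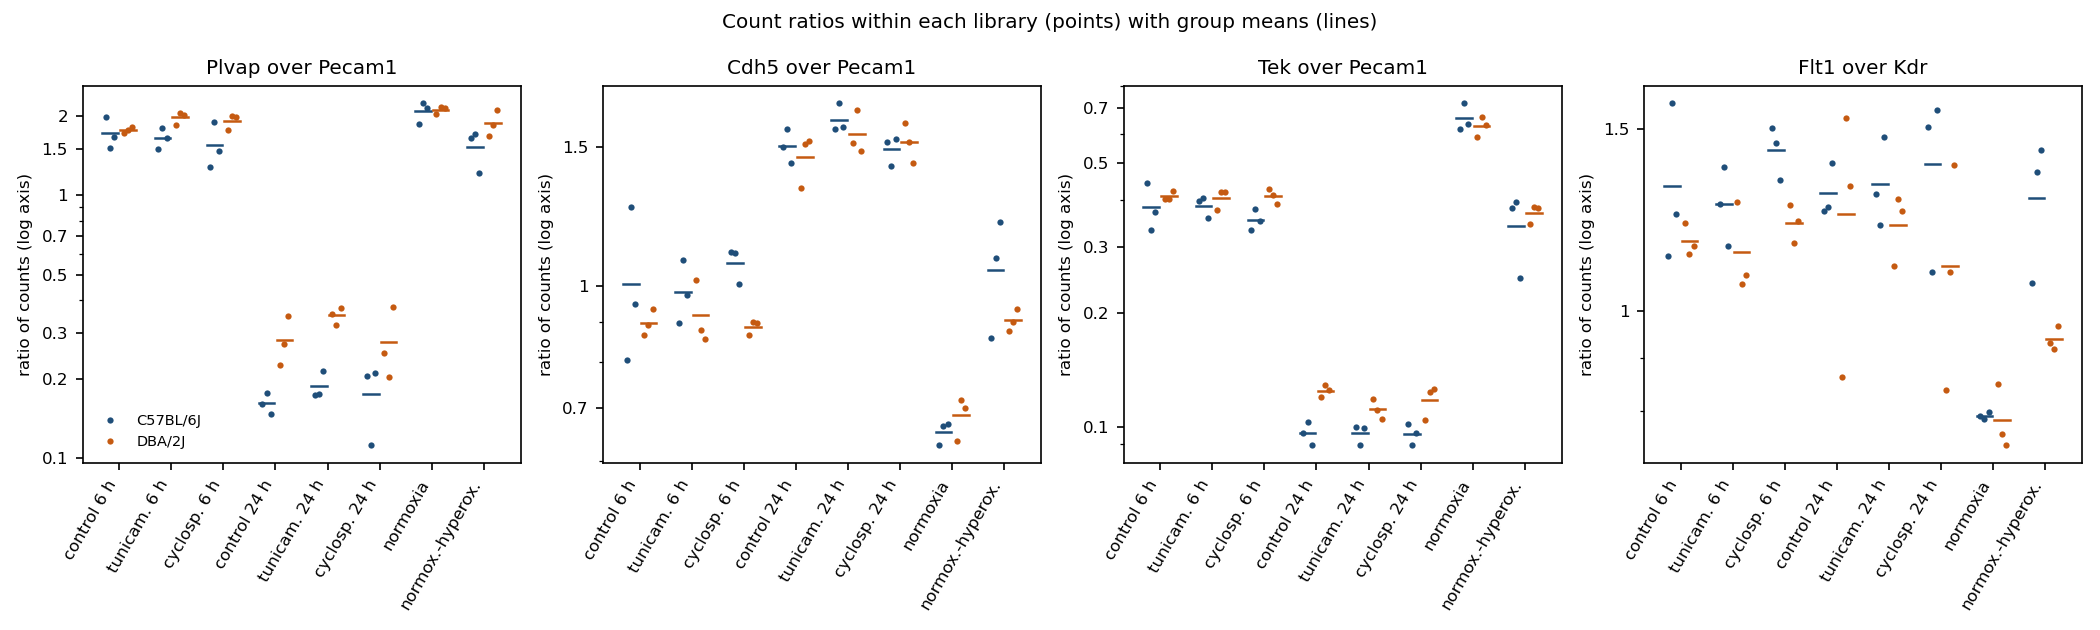
Ratio of counts (log axis) of 4 pairs of members in each library (points) with group means (lines), by condition and strain. Plvap over Pecam1 and Tek over Pecam1 are low in the 24 h controls and drug groups, Cdh5 over Pecam1 is highest there, and Flt1 over Kdr has its lowest means under normoxia.

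Across the 16 group means, 8 members varied together and the junction pair did not follow them. The Pearson correlation of a member's mean log2 CPM with the mean of the other 9 was 0.975 for Flt1, 0.966 for Kdr, 0.963 for Tie1, 0.944 for Emcn, 0.921 for Eng, 0.880 for Ehd3, 0.867 for Tek and 0.806 for Plvap. It was 0.410 for Pecam1 and -0.03 for Cdh5. Cdh5 and Pecam1 correlated with each other at 0.897. These values describe 16 groups that share slices' culture and depth, and carry no test. The highest group mean of Plvap was 10.4 times its lowest, and that of Cdh5 8.28 times, while Emcn spanned only 2.79 times. The 8 other genes whose group means most resembled the mean of the members, out of 13059 with enough expression, were St3gal6 (Pearson 0.982), Rilpl1 (0.981), Fgd5 (0.979), Unc45b (0.977), Sytl2 (0.973), Tspan12 (0.972), Zfp711 (0.972) and Filip1 (0.970). Only 2 of them, Unc45b and Zfp711, were also among the top 8 by Spearman's rho.

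No member passed the adjusted test with either drug. Tunicamycin at 6 h gave 0 of 10 members called, where 0% of all 16551 genes tested were called, and at 24 h 0 of 10, where 1.38% of 16905 were. Cyclosporin A gave 0 of 10 at 6 h, with 0% of 16538 genes called, and 0 of 10 at 24 h, with 0% of 16887. At an unadjusted p under 0.05, edgeR counted no member for tunicamycin at either time, 2 for cyclosporin A at 6 h and none at 24 h, and DESeq2 called no member in any of the 4. Over all genes, 281, 2174, 734 and 1107 genes reached an unadjusted p under 0.05 in edgeR for tunicamycin at 6 h and 24 h and cyclosporin A at 6 h and 24 h, and DESeq2 called 0, 536, 45 and 19. The members' log2 differences ran from -0.11 to 0.04 for tunicamycin at 6 h and from -0.18 to 0.18 at 24 h. For cyclosporin A they ran from -0.33 to -0.14 at 6 h, all 10 below 0, and from -0.17 to 0.09 at 24 h. Standard errors lay between 0.0873 and 0.188 over the 4 comparisons, so differences of these sizes were not resolved with 3 libraries a group. The drug comparisons of each time share their controls.

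Levels with and without a drug overlapped in the examples that follow. Plvap in C57BL/6J at 24 h was 52.3, 56.2 and 66.6 CPM with tunicamycin and 70.6, 44.3 and 61.98 with cyclosporin A, beside 44.03, 62.8 and 52.5 in the controls. Kdr in C57BL/6J at 6 h was 299, 358 and 349 CPM with tunicamycin and 273, 353 and 254 with cyclosporin A, beside 331, 379 and 348 in the controls. The 2 members under the unadjusted threshold with cyclosporin A at 6 h were Kdr, at -0.33 ± 0.141 (SE, edgeR adjusted p = 0.99997), and Eng, at -0.31 ± 0.114 (SE, edgeR adjusted p = 0.892), on the log2 scale. Over the other lists of endothelial and neighbouring genes the only drug call was Plat, tissue plasminogen activator, which was lower with tunicamycin at 24 h by a log2 fold change of -0.44 ± 0.0968 (SE, edgeR adjusted p = 0.0469).

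The strains were compared within the control and oxygen conditions. In the 6 h controls, 8 of 10 members were lower in DBA/2J than in C57BL/6J, against 12.7% of all 16962 genes tested that were lower, and DESeq2 called 7, with 10.2% of all genes lower by its test. All 10 had negative log2 differences, with a median of -0.58 beside -2.6e-04 over all genes. All 10 also had an unadjusted p under 0.05 in edgeR, where 37.4% of all genes did in either direction. In 8 members every DBA/2J library lay below every C57BL/6J library, and the share of all genes apart in this way was not counted. Cdh5 and Ehd3 were the members whose libraries overlapped. The largest differences were those of Flt1 (-0.88 ± 0.235, edgeR adjusted p = 0.0177), Cdh5 (-0.81 ± 0.273, edgeR adjusted p = 0.0482) and Kdr (-0.68 ± 0.192, edgeR adjusted p = 0.0205). The count was not steady: it was 1 without C57BL/6J replicate 2 or without DBA/2J replicate 1, 2 without C57BL/6J replicate 3, 4 without DBA/2J replicate 2, and 3 with library totals in place of TMM factors. The share of all genes lower was 7.84% to 9.38% in these 4 leave-outs and 7.35% with library totals. Library totals also moved the calls over all genes from 2299 higher and 2151 lower to 3894 and 1247.

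At 24 h, 5 members were lower in DBA/2J controls, where 8.27% of all genes were, and DESeq2 also called 5, with 7.8% of all genes. With no filter on low counts edgeR called 8 members and 6.11% of all genes. The strains did not overlap for Pecam1, Cdh5, Kdr, Flt1, Ehd3 and Tie1, and the share of all genes without overlap was not counted. At an unadjusted p under 0.05 edgeR counted 7 members, and 33.6% of all genes in either direction. Plvap was close to equal, with a DBA/2J mean 1.02 times the C57BL/6J mean. Under normoxia all 10 members had every DBA/2J library below every C57BL/6J library. The share of all genes with strains apart in this way was not counted. An unadjusted p under 0.05 in edgeR was reached by all 10 members, where 53.6% of all genes reached it in either direction. The adjusted test was passed by 6 members, against 18.5% of all 17228 genes tested that were lower, while DESeq2, the single fit of all libraries and edgeR with no filter called all 10. Those 3 fits called 15.5%, 19.3% and 12.5% of all genes lower. The median log2 difference was -0.63 beside 0.08 over all genes. The edgeR count was 2 without C57BL/6J normoxia replicate 2, DBA/2J normoxia replicate 1 or DBA/2J normoxia replicate 2, and 10 without DBA/2J normoxia replicate 3, with 14.2% to 16.7% of all genes lower in these 4 leave-outs.

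Under normoxia-hyperoxia no member was lower in DBA/2J by edgeR, where 11.3% of all genes were, or by DESeq2, where 9.49% were. None reached an unadjusted p under 0.05 in edgeR, where 37.6% of all genes did in either direction. With library totals the calls over all genes went from 2470 higher and 1953 lower to 3370 and 1187, and the members still had none, but with no filter on low counts edgeR called 3 members and 8% of all genes lower. All 10 members had overlapping strains, and the share of all genes that overlapped was not counted. The ratio of the DBA/2J to the C57BL/6J mean ran from 0.815 to 1.19 with a median of 1.02, and it was below 1 in 4 members. In the other 7 conditions the median ratio ran from 0.597 to 0.733. Across all conditions the DBA/2J mean was lower in 72 of 80 pairs of member and condition. Most members varied together, so these pairs are not independent, and the share of all genes with a lower DBA/2J mean was not counted. In the control and oxygen conditions the median log2 strain difference of all genes ran from -2.6e-04 to 0.083. Flt1, Pecam1, Cdh5 and Tie1 had lower DBA/2J means in all 8 conditions.

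**Figure D4:**
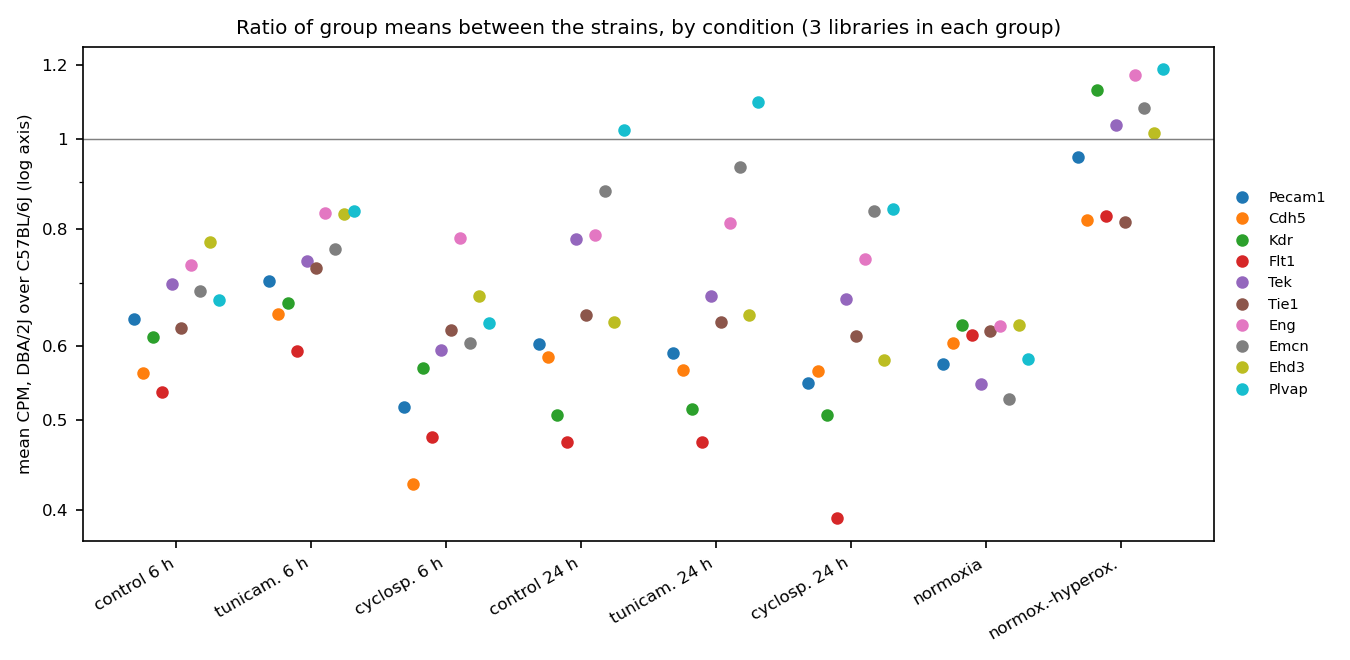
Ratio of the DBA/2J to the C57BL/6J mean CPM for each of the 10 members, by condition, with 1 marking equal strains. Most points lie below 1, except under normoxia-hyperoxia, where the ratios run from 0.815 to 1.19.

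Podocyte markers moved with the strain difference: 5 of 8 were lower in DBA/2J in the 6 h controls, 6 in the 24 h controls, 5 under normoxia and 0 under normoxia-hyperoxia, and none was higher. Of 10 pericyte and fibroblast markers, 2, 2, 8 and 3 were lower in these 4 conditions in the same order, and 1, 1, 1 and 0 higher. Of 8 tubule markers, 0, 0, 5 and 0 were lower and 1, 4, 3 and 3 higher. Of 9 leukocyte and platelet markers tested, 0, 0, 3 and 0 were lower and 2, 5, 1 and 8 higher. The mitochondrial share was lower in DBA/2J than in C57BL/6J in the controls and under normoxia and overlapped under normoxia-hyperoxia. The submitters' notes name GRCm38, an assembly of C57BL/6J, and the effect of DBA/2J sequence differences on the mapping of reads was not tested. The part of these in the members' strain differences was not tested either.

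The difference between the strains' responses was tested as an interaction (DBA/2J response minus C57BL/6J response). Shares of all genes called by the same rule stand beside each count. For time in culture 0 of 10 members passed (0.69% of all genes), 1 member had an unadjusted p under 0.05 (13.2%) and DESeq2 called none (1.85%). For normoxia against the 24 h controls 0 passed (17%), 2 had an unadjusted p under 0.05 (30.9%) and DESeq2 called 2 (19.5%). For normoxia-hyperoxia against the 24 h controls 0 passed (1.43%), 4 had an unadjusted p under 0.05 (15.4%) and DESeq2 called 1 (4.43%). For normoxia-hyperoxia against normoxia 1 passed (18.2%), 5 had an unadjusted p under 0.05 (32.7%) and DESeq2 called 5 (20.9%). With no filter on low counts these last 3 comparisons gave 5, 5 and 7 calls, with 10.7%, 3.56% and 10.6% of all genes. With the replicate block they gave 1, 2 and 7 calls, with 15.4%, 3.58% and 22.8% of all genes. The member that passed was Emcn, the luminal sialomucin. Its log2 fold change was 0.46 ± 0.157 in C57BL/6J and 1.40 ± 0.161 in DBA/2J, and the difference was 0.94 ± 0.223 (SE, edgeR adjusted p = 0.0117). The other 9 interactions had the same sign, from 0.29 to 0.94, and did not pass. Without C57BL/6J normoxia-hyperoxia replicate 2 there were 4 calls (19% of all genes), without DBA/2J normoxia-hyperoxia replicate 1 there were 3 (15%), and without DBA/2J normoxia replicate 3 there were 2 (15.5%).

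The ligands of the receptors were followed in a list of 11 VEGF and angiopoietin ligands and co-receptors, in which 3 were higher and 6 lower at 24 h than at 6 h. Vegfa, the main ligand of Kdr, had 778, 1184 and 929 CPM at 6 h and 1192, 1179.5 and 1089 at 24 h in C57BL/6J, and the log2 difference over both strains, 0.22 ± 0.115 (SE, edgeR adjusted p = 0.0953), did not pass. Pgf, a ligand of Flt1, rose by 3.25 ± 0.271 (SE, edgeR adjusted p = 6.99e-07), from 7.93, 27.6 and 16.4 to 135, 217 and 187 CPM in C57BL/6J. Angpt2, the context-dependent ligand of Tek that endothelial cells store, had 11.3, 27.1 and 16.9 CPM at 6 h and 198, 289 and 272 at 24 h in C57BL/6J, and 17.2, 10.9 and 13.3 and then 150.3, 143 and 73.4 in DBA/2J. It rose by 3.45 ± 0.250 (SE, edgeR adjusted p = 1.9e-07) while Angpt1, the activating ligand of Tek, fell by 2.25 on the log2 scale. Angpt1 held 1.03, 3.22 and 2.28 CPM in C57BL/6J and 7.35, 3.69 and 5.25 in DBA/2J at 24 h, below all 6 h libraries, which held 12.5 to 18.2 CPM in C57BL/6J and 15.4 to 17.8 in DBA/2J.

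Under normoxia Vegfa, Pgf and Angpt2 were lower, and Angpt1 higher, than in the 24 h controls. Vegfa had 309, 296 and 289 CPM in C57BL/6J and 242, 277 and 297 in DBA/2J, below every control library, with a log2 fold change of -1.87 ± 0.0982 (SE, edgeR adjusted p = 6.67e-11) against the 24 h controls. Pgf was near 0, with 16, 8 and 9 counts in C57BL/6J and 9, 3 and 8 in DBA/2J, and a log2 fold change of -8.33 ± 0.269 that rests on those few counts. Angpt2 fell by 4.92 and Angpt1 rose by 2.15 ± 0.212 on the log2 scale. Of the 11 genes, 4 were higher and 5 lower. Normoxia-hyperoxia against normoxia had 7 higher and 3 lower, with Vegfa at 1.34 ± 0.0843 and Angpt2 at 1.71 ± 0.329 on the log2 scale. Vegfa under normoxia-hyperoxia, at 835, 735 and 815 CPM in C57BL/6J and 567, 706 and 774 in DBA/2J, lay below the 24 h controls of its strain (log2 fold change -0.54 ± 0.106).

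Tip cell and Notch genes mark sprouting vessels, and of 13 such genes 8 were higher and 4 lower at 24 h than at 6 h (median log2 fold change 0.31). Apln, the ligand made by tip cells, had 21.9, 73.8 and 35.7 CPM at 6 h and 595, 827 and 706 at 24 h in C57BL/6J. In DBA/2J it had 16.2, 22.6 and 20.2 and then 361, 403 and 222 CPM, and its log2 fold change came to 4.02 ± 0.287 (SE, edgeR adjusted p = 1.67e-07). Its receptor gene Aplnr fell by 2.66 on the log2 scale, while Unc5b (1.39 ± 0.107) and Esm1 (1.05 ± 0.217), 2 further tip cell genes, rose. Against the 24 h controls normoxia had 3 of the 13 higher and 10 lower (median -1.10), with Apln at -5.58 ± 0.171, Esm1 at -2.37 ± 0.186 and Aplnr at 3.79 ± 0.177. Against normoxia, normoxia-hyperoxia had 12 higher and 1 lower (median 1.33), led by the receptor gene Notch1 at 2.63 ± 0.111.

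**Figure D5:**
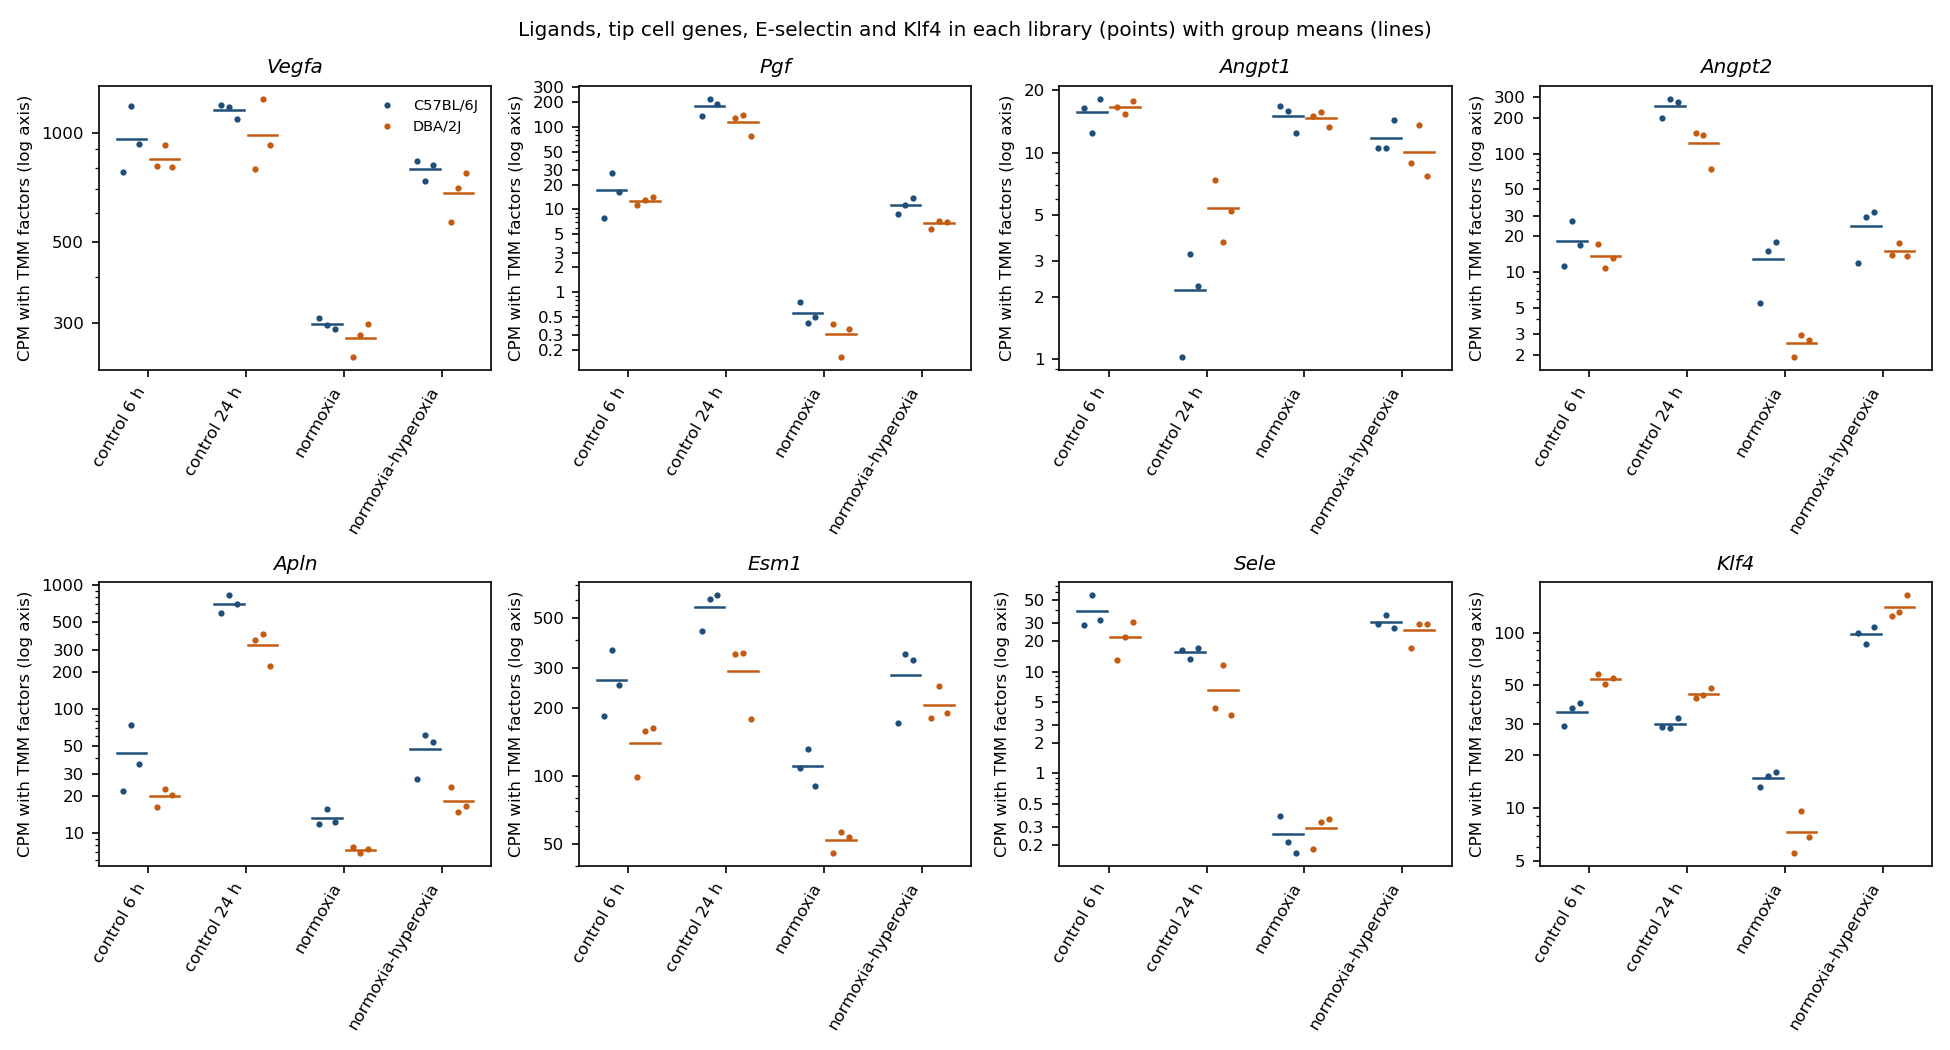
CPM (log axis) of Vegfa, Pgf, Angpt1, Angpt2, Apln, Esm1, Sele and Klf4 in each library (points) with group means (lines) for controls at 6 h and 24 h, normoxia and normoxia-hyperoxia. Angpt2 and Apln are highest in the 24 h controls, where Angpt1 is lowest, and Sele is near 0 CPM under normoxia in both strains.

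A list of 20 further genes widely used as endothelial markers was split in its direction. At 24 h against 6 h, 9 were lower and 4 higher, with a median log2 fold change of -0.36, and Clec14a (-2.11 ± 0.129), the phosphatase gene Ptprb (-1.65 ± 0.1101) and Arhgef15 (-1.64 ± 0.111) were furthest down on the log2 scale. Normoxia against the 24 h controls had 5 higher and 9 lower (median -0.20), with Clec14a at 2.13 ± 0.135, the sphingosine-1-phosphate receptor gene S1pr1 at -3.04 ± 0.117 and Nos3, the endothelial nitric oxide synthase, at -1.79 ± 0.1002. Normoxia-hyperoxia against normoxia had 15 higher and 1 lower (median 0.82), led by S1pr1 at 2.71 ± 0.169 and Nos3 at 1.87 ± 0.0999. Against the 6 h controls, normoxia had 17 lower and 1 higher (median -0.81). The 4 strain comparisons, in the order of 6 h controls, 24 h controls, normoxia and normoxia-hyperoxia, had 14, 15, 17 and 4 of the 20 lower in DBA/2J.

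Of 15 transcription factors of the endothelium, 8 were lower and 3 higher at 24 h than at 6 h (median log2 fold change -0.28). Epas1, the hypoxia-inducible factor 2 alpha gene, fell by 1.75, Sox18 by 1.34 and the flow-responsive Klf2 by 1.30 on the log2 scale. Normoxia against the 24 h controls had 5 higher and 6 lower. Normoxia-hyperoxia had 12 higher and 1 lower against the 24 h controls, with Klf2 at 2.74 ± 0.0888, and 13 higher and 1 lower against normoxia (medians 0.82 and 0.80). Klf4, another flow-responsive factor, had 13.1, 15.3 and 16.1 CPM under normoxia and 98.8, 86.2 and 108 under normoxia-hyperoxia in C57BL/6J, and 5.56, 9.68 and 6.83 and then 124, 130.4 and 163 in DBA/2J. The groups were far apart, with a log2 fold change of 3.45 ± 0.122 (SE, edgeR adjusted p = 1.58e-11).

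The endothelial activation genes, of which 6 could be tested in each of these comparisons, moved together between the oxygen conditions. All 6 were lower under normoxia than in the controls of either time, and all 6 were higher under normoxia-hyperoxia than under normoxia. Sele, which encodes E-selectin, a leukocyte adhesion molecule of activated endothelium, had 8, 4 and 3 counts under normoxia in C57BL/6J and 4, 6 and 8 in DBA/2J. Under normoxia-hyperoxia it had 29.6, 35.98 and 26.7 CPM in C57BL/6J and 16.96, 29.5 and 29.6 in DBA/2J, and its log2 fold change of 6.61 ± 0.228 rests on those few counts. Between the 2 control times, 3 of the 6 were lower at 24 h and 1 was higher, with a median log2 fold change of -0.45. Sele, which fell by 1.54 on the log2 scale, was the lowest of the 6. Against the 24 h controls, normoxia-hyperoxia had 3 of the 6 higher and 2 lower.

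Endoglin works with TGF-beta and BMP receptors, and 11 of their genes could be tested. At 24 h against 6 h, 3 were higher and 6 lower, with the BMP target genes Id2 (-1.86 ± 0.0618) and Id3 (-1.85 ± 0.0876) lower. Acvrl1, the ALK1 receptor gene, was higher under normoxia-hyperoxia than in the 24 h controls (1.30 ± 0.124) and than under normoxia (1.49 ± 0.118) on the log2 scale. Normoxia-hyperoxia against normoxia had 8 of the 11 higher and none lower.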

How the data were processed

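Per the submitters' processing notes, reads were handled with bcl2fastq 2.20.0, FastQC 0.11.8, STAR 2.7.9a and featureCounts 1.5.1 on GRCm38. The strand setting, annotation release and filters are not given in the sources used here, so how reads in the overlap of Eng and Fpgs were counted is not known. Per the labels' protocols, RNA extracted with a Qiagen kit was made into Illumina stranded mRNA libraries. The authors deposited whole-number counts for 55487 genes in 48 libraries, without normalization. Symbols were matched for 55141 IDs. Groups came from the labels. The 10 members and 12 further gene lists were chosen with earlier results of these data known.

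Each comparison was fitted on its own 12 libraries with edgeR 4.0.16 (R 4.3.3, limma 3.58.1): TMM factors, edgeR's default filter on low counts with the groups given, and a robust quasi-likelihood F test with a mean for each group. The log2 fold change is the mean of both strains unless a strain is named. Its SE is the absolute log2 fold change divided by the square root of the F statistic, so it is derived from the test. For genes with few counts it may be too narrow. Benjamini-Hochberg adjustment ran over all genes tested in a contrast, with a threshold of 0.05, separately for each contrast. No 2 libraries of a group differed by as little as sampling noise. Levels are CPM with TMM factors over all 48 libraries, and per kb means per kb of merged exon length. Figures used Python 3.11.15 and matplotlib 3.10.9. Of each other list, up to 3 genes a comparison were named: those past the threshold with the largest change and a mean log2 CPM of at least 0. Vegfa, Angpt2, Apln and Esm1 were named in any case. A gene of these lists that met the rule is not reported here. Genes of like pattern were the 8 with the highest Pearson correlation, over the 16 groups, with the mean of the members, at a mean log2 CPM of at least 1. Alternatives were library totals or RLE factors in place of TMM, no filter, DESeq2 1.42.0, 1 fit over all 48 libraries, a block for replicate numbers, and leaving out each library in turn. All columns were mapped to samples.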

Additional observations from a re-analysis of the deposited data

Results flagged for a closer look

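The response of Emcn to normoxia-hyperoxia against normoxia differed between the strains by the interaction test. The C57BL/6J libraries held 139, 175 and 125 CPM under normoxia and 172, 240.2 and 184 under normoxia-hyperoxia, and those of DBA/2J 64.6, 81.7 and 84.5 and then 181, 229 and 233. The 2 conditions overlapped in C57BL/6J and were apart in DBA/2J. The log2 fold change was 0.46 ± 0.157 in C57BL/6J and 1.40 ± 0.161 in DBA/2J (SE), a difference of 0.94 ± 0.223 (SE, edgeR adjusted p = 0.0117). The interaction test called 18.2% of all genes in this comparison, and Emcn was the only one of the 10 members it called. All 10 members had positive differences, the lowest at 0.29 on the log2 scale. DESeq2 called 5 of them (20.9% of all genes) and the fit with the replicate block 7 (22.8%).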

How the results depend on the processing

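Among the 50 log2 fold changes of the 10 members in the 5 comparisons of time and oxygen, direction was held throughout except near 0. Pecam1 at 24 h against 6 h ranged from -0.0507 to 0.136 when a library was left out, with negative values also of -0.02 and -0.01, and with library totals it was -0.0429 for normoxia-hyperoxia against the 24 h controls. For normoxia against the 24 h controls, Flt1 was -0.18 with library totals, and Emcn was -0.24 with library totals, -0.00258 with RLE factors, -0.00125 with DESeq2, -0.0103 in the single fit and -0.0519 to 0.108 with a library left out, with negative values also of -0.0325, -0.0148 and -0.0019. Calls moved for Cdh5 (lost in 3 leave-outs of normoxia-hyperoxia against the 24 h controls), Tek (lost in 9 leave-outs and the single fit of normoxia against the 6 h controls), and for Tek and Ehd3 in normoxia-hyperoxia against normoxia, which were called with no filter, in the single fit, with the replicate block and in 1 leave-out each. The block also called Ehd3 in normoxia against the 6 h controls, and changed no other call of a member. Counts of members called moved by over 1.5 times for the strain differences and interactions. The share of all genes called by the same fit stands in brackets. With no filter, members lower in DBA/2J were 8 in the 24 h controls (6.11%), 10 under normoxia (12.5%) and 3 under normoxia-hyperoxia (8%). Interactions were 5 for normoxia (10.7%) and 5 for normoxia-hyperoxia (3.56%) against the 24 h controls and 7 between the oxygen conditions (10.6%). DESeq2 gave 10 under normoxia (15.5%) and 2, 1 and 5 interactions in that order (19.5%, 4.43% and 20.9%). The single fit gave 10 under normoxia (19.3%) and, between the oxygen conditions, 4 interactions (13.2%). With library totals 3 members were lower in the 6 h controls (7.35%) and 2 interactions were called between the oxygen conditions (14.5%). Leaving out a library gave 1 to 9 members lower in DBA/2J at 6 h (7.75% to 13.4%) and 2 to 10 under normoxia (14.2% to 19.7%). Against the 24 h controls it gave 0 to 1 interactions for normoxia (10.4% to 15.1%) and 0 to 1 for normoxia-hyperoxia (0.578% to 2.96%). Between the oxygen conditions it gave 1 to 4 interactions (12.6% to 19%). The cause was not tested. In no comparison were all 6 correlations of same-numbered libraries over 0.1, and by that rule the main fits did not pair the samples. The mean correlation was positive in each comparison, from 0.019 (24 h against 6 h controls) to 0.145 (normoxia against 6 h controls). In these 2 comparisons 0 and 5 of the 6 were over 0.1. For normoxia and normoxia-hyperoxia against the 24 h controls and between the oxygen conditions, 1, 4 and 4 of 6 were. Whether same-numbered libraries came from 1 mouse was not tested. The replicate block gave 1, 2 and 7 interactions in the same order (15.4%, 3.58% and 22.8%), and the strain differences had no such fit, since the numbers lie within a strain. Of the 160 group means in CPM, 17 moved by more than 1 SD with library totals and 1 with RLE factors. The lowest count of a member in any library was 300, and the effect of depth on the calls was not tested. With 3 libraries a group, differences of the size of the drug values were unresolved.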

Other observations

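Genes of particular vessels were measured beside the members. Of 6 lymphatic markers 4 could be tested, and 3 were lower and 1 higher in the 24 h than in the 6 h controls. Prox1, the lymphatic regulator that kidney tubules also express, fell by 1.48 on the log2 scale with time and was 1.75 ± 0.131 under normoxia and 2.41 ± 0.147 under normoxia-hyperoxia against the 24 h controls (log2 fold change ± SE). Pdpn, which encodes podoplanin and is shared by lymphatic vessels and podocytes, had 16.2, 12.6 and 11.6 CPM under normoxia and 102, 80.4 and 113 under normoxia-hyperoxia in C57BL/6J, and 11.9, 10.1 and 10.3 and then 69.1, 78.3 and 111 in DBA/2J. Its log2 fold change between these conditions was 2.90 ± 0.138 (SE, edgeR adjusted p = 8.42e-10).

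Of the glomerular and vasa recta endothelial genes, 9 could be tested between the control times, and 6 were lower and 1 higher at 24 h. Plat, tissue plasminogen activator, had 283, 429 and 347 CPM at 6 h, 118, 114 and 94.8 under normoxia and 265, 296 and 376 under normoxia-hyperoxia in C57BL/6J. In DBA/2J it had 220.4, 216 and 231, then 41.2, 44.5 and 50.7 and 168, 197 and 228 CPM, and it rose between the oxygen conditions by a log2 fold change of 1.79 ± 0.103 (SE, edgeR adjusted p = 8.58e-10). Gja5, the connexin 40 gene of arterial endothelium and renin cells, went the other way: it had 9.03, 8.94 and 9.66 CPM under normoxia and 1.64, 2.42 and 1.96 under normoxia-hyperoxia in C57BL/6J, and 4.11, 3.15 and 3.81 and then 1.17, 1.398 and 0.658 in DBA/2J. The log2 fold change came to -2.07 ± 0.169 (SE, edgeR adjusted p = 2.22e-08), with the conditions apart in both strains.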
